A study of Mus musculus with 1507 samples.

Results

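Retained-intron transcripts are annotated RNA models of a gene that keep, as exon, bases that other transcripts of the same gene splice out. They were examined here in mouse embryonic stem cells (ES cells) and in primitive endoderm (PrE) cells made from them. Members were chosen by measured levels. A transcript was taken when its type in the deposited gene models was retained intron and its mean level was at least 1 TPM (a level scaled to transcript length and to the sum over all transcripts) in single ES cells at 0 h or in single cells at 72 h of differentiation. Transcripts of Malat1 were to be left out, which removed 0 members. This rule took 8327 of 16805 retained-intron transcripts, out of 115125 transcripts of all types in the table, and they belong to 3952 genes. At both times 5972 members passed the limit, 1301 at 72 h only and 1054 at 0 h only. Levels at 0 h and 72 h chose the members and are therefore given as a description with no test.

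The cells were 5G6GR ES cells, a line made from EB5 ES cells by random integration of a vector that expresses Gata6, a transcription factor of the endoderm, fused to the glucocorticoid receptor (GR) together with puromycin resistance. Every group carries this vector. Dexamethasone switches the fusion protein on and turns the cells into PrE cells. Single cells without dexamethasone (0 h, n = 92) and after 12 h (n = 91), 24 h (n = 93), 48 h (n = 87) and 72 h (n = 93) of dexamethasone were read by RamDA-seq, a single-cell method whose primers (oligo-dT together with a set of hexamers that avoids rRNA) start all along an RNA, so that a poly(A) tail is not needed. ES cells without dexamethasone were also sorted by DNA content into G1 (n = 93), S (n = 91) and G2/M (n = 93). PrE and ES cells were further read side by side on 4 plates named B1, B2, E1 and E2, with 38, 47, 56 and 54 PrE cells and 58, 49, 40 and 42 ES cells. RNA purified from ES cells was read as rRNA-depleted total RNA (rdRNA-seq, 3 libraries from 1 µg), as poly(A)-selected RNA (paRNA-seq, 3 libraries from 1 µg), by RamDA-seq from 10 pg (3 libraries) and by SMART-Seq v4, an oligo-dT kit, from 10 pg (4 libraries). Each time and phase is taken here as 1 set of cells of 1 line, since no label names separate cultures within it. No label says whether the libraries of a method came from separate cultures, so p-values between methods measure the spread between these libraries, which may be that of preparation alone. The study made the 4 plates to gauge plate-to-plate variability and names no separate cultures for them. Per the paper, their libraries were made by a modified RamDA-seq protocol, with changed reverse transcription and second-strand steps. The p-values on plates likewise measure the spread between plates, which may be that of preparation alone.

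Introns are removed from a precursor RNA while it is made or shortly after. A transcript that keeps an intron may stay in the nucleus until it is spliced, may be destroyed by nonsense-mediated decay once it meets a ribosome, or may be a stable RNA with its own end. Stem cells and differentiating cells are known to use intron retention to set the amount of some mRNAs, in particular those of splicing factors. In these files a read inside a kept intron could come from a finished retained-intron transcript or from a precursor not yet spliced, since the index of transcripts held no precursor, and the pair cannot be told apart. Reads in exons shared by several transcripts were divided among them by the quantification software, without regard to strand.

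The members had a median length of 760 bases (quartiles 566 and 1796) in a median of 3 exons. Their own bases, meaning bases that are in no exon of an annotated transcript of another type of the gene, had a median of 277 (quartiles 126 and 628), and 80 members had no own base. A whole annotated intron lay inside an exon of 2489 members, whereas the other 5838 members had none. Some of these keep a part of an intron, for example by reading on past a 5′ splice site. Whether each of them does was not tested. The 3737 distinct whole introns had a median length of 254 bases (quartiles 113 and 673). Introns were counted by start and end, so alternative introns that overlap count separately here and below. A snoRNA gene lay inside 77 members and a miRNA gene inside 33. Gas5, a noncoding host gene of snoRNAs, had the most members (16), 1901 genes had 1 member and 291 genes had 5 or more. Of the introns that could be read, 97.8% of 3649 in members began with GT and ended with AG, against 96.8% of 4345 in retained-intron transcripts under the limit. The first 6 intron bases, read on the strand of the gene, were GTAAGT in 9.98% of the introns in members and in 8.63% of those under the limit.

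The following sequences are from the transcripts of GENCODE vM21 on mm10, matched by identifier, version and length. They show the splice site whose unspliced bases the member keeps, so that the RNA described later can be read off directly. The first set holds members with the 5 largest falls and the 5 largest rises in share of their gene between 0 h and 72 h. Pde4d-010 and Ppdpf-006, of the rises, are not shown. In a 5′ site (donor) the capitals mark the first 6 bases of the intron, and in a 3′ site (acceptor) the last 3 bases of the intron. All 30 bases of each window are exon in the member, whereas the intron part is spliced out in another transcript of the gene.
Wiz-006, donor, chr17:32376502-32376531, minus strand: tccacaatgGTATCGtgttgcggccgccag
Cnppd1-008, donor, chr1:75137305-75137334, minus strand: ctggtaaagGTGAGAaggggttatgaggaa
Vamp3-002, donor, chr4:151050896-151050925, minus strand: aactgcaagGTAATGctctcttgacagacc
Tcirg1-009, donor, chr19:3898527-3898556, minus strand: attgacccgGTAAGTgggcatactggtgca
Aplp1-005, acceptor, chr7:30436886-30436915, minus strand: tctttctgtgtgtgccctCAGaggagcttc
Rab34-006, donor, chr11:78190728-78190757, plus strand: acacaccaaGTATGTgaggatgccagaaca
Brca2-012, acceptor, chr5:150556840-150556869, plus strand: attcctctttcctttttgCAGatttctgca
Sirt1-005, acceptor, chr10:63325197-63325226, minus strand: gttctattttggttgtttTAGgttcctttg
The GT or AG of the intron is intact in each of these 8 windows.

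The second set holds members that stood out on the plates or between library methods. For Tax1bp3-002 (intron of 279 bases), Hnrnpa2b1-004 (an intron of 80 bases) and Trim28-008 (intron of 87 bases) a whole intron lies inside an exon and both of its ends are shown. Hnrnpa2b1-004 has 4 annotated introns inside, some of which overlap, and the ends of 1 are shown. The capitals have the same meaning.
Tax1bp3-002, donor, chr11:73180800-73180829, plus strand: atcatgcagGTACGGttgtcccaaaggagt
Tax1bp3-002, acceptor, chr11:73181067-73181096, plus strand: tgtattttctccttgggcTAGgtgaatggc
Pecam1-009, donor, chr11:106661981-106662010, minus strand: agatactctGTAAGTacacacgtcacacac
Hnrnpa2b1-004, donor, chr6:51466282-51466311, minus strand: gaagaggagGTAATGttatttatttatgtg
Hnrnpa2b1-004, acceptor, chr6:51466214-51466243, minus strand: aattagattactatgttcTAGgaaactttg
Serbp1-010, donor, chr6:67267401-67267430, plus strand: agaaagaagGTAAAGccgggcgaggcggtg
Ppp1r10-002, donor, chr17:35917708-35917737, plus strand: aattggataGTAAGTgtcgaattttcaaaa
Trim28-008, donor, chr7:13029987-13030016, plus strand: tgttccaggGTATGTgtgaggctgggcagg
Trim28-008, acceptor, chr7:13030062-13030091, plus strand: tcctaatcttcctcatccTAGggaggaatg

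Depth and labels were examined before the members were read. Summed estimated counts of a library ranged between 7395211 and 7502411 in rdRNA-seq, between 8946715 and 8962910 in paRNA-seq, between 5713519 and 5741933 in RamDA-seq and between 8875493 and 8921042 in SMART-Seq v4. At 72 h the ES cell factors Pou5f1, Nanog and Sox2 averaged 30.5, 1.26 and 0.138 TPM, against 276, 110 and 67.8 TPM at 0 h, and the endoderm genes Gata4, Sox17 and Sparc averaged 212, 110 and 3324 TPM at 72 h, all above their levels at 0 h. Trophectoderm markers stayed at or under 2.98 TPM over time. On the plates Gata4 was at 298.8 to 353.5 TPM in PrE cells, against 1.02 to 1.57 TPM in ES cells, but single plates stood apart in other markers. Some wells held far fewer detected transcripts than the rest of their group (under the lower quartile minus 1.5 times the interquartile range of their group): 3, 8, 4, 8 and 3 cells from 0 h to 72 h, 8, 2 and 4 cells in G1, S and G2/M, and 1, 6, 2 and 2 PrE cells and 6, 9, 1 and 0 ES cells on plates B1, B2, E1 and E2. They are kept below, and values without them are given where a result changes. ES cells of plate B2 averaged 642.7 TPM of Col4a1, 435.8 TPM of Sparc and 292.6 TPM of Gata6, and 11.2, 88.6 and 81.3 TPM without these wells, and Gata6 in ES cells of plate E1 was 152 TPM, and 73.3 TPM without them. PrE cells of plate E2 averaged 24.2 TPM of Esrrb, and 0.853 TPM without them. Sparc in PrE cells of plate B1 was 7117 TPM, and 4754 TPM without them.

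The members took a small and narrow part of a cell's RNA at every time. Per cell they held a median of 4.67% of all TPM at 0 h (2.48 to 6.52%), 4.88% at 12 h (1.40 to 6.06%), 5.31% at 24 h (1.13 to 7.08%), 4.72% at 48 h (1.09 to 6.08%) and 4.29% at 72 h (2.71 to 5.14%). The ranges of the 5 times overlapped, with the highest median at 24 h and the lowest at 72 h. The median at 24 h (5.31%) lay above the highest cell at 72 h (5.14%). In the sorted ES cells the medians were 4.69% in G1, 5.14% in S and 4.95% in G2/M. As a part of the TPM of their own genes the members held 23.01, 22.4, 23.3, 21.1 and 21.6% from 0 h to 72 h. In the purified RNA the members held 10.0 to 10.1% of the estimated counts of their genes in rdRNA-seq, against 7.83 to 7.94% in paRNA-seq, and 9.19 to 9.33% in RamDA-seq, against 8.39 to 8.97% in SMART-Seq v4. These count shares are not per length and cannot be set beside the TPM shares. Between 1523 and 1634 members were at 0 in an rdRNA-seq library and between 1847 and 1878 in a paRNA-seq library, whereas 3065 to 3166 were at 0 in a RamDA-seq library and 5377 to 5418 in a SMART-Seq v4 library.

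**Figure D1:**
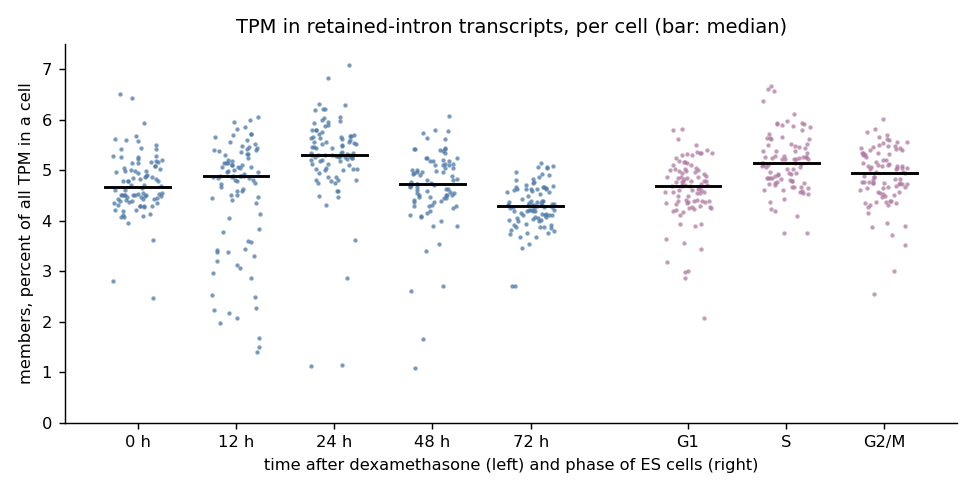
Percent of all TPM of a cell (vertical axis) that lies in the 8327 retained-intron transcripts, with 1 point a cell and a bar at the median, by time after dexamethasone (left) and by phase of sorted ES cells (right). Medians lie between 4.29% at 72 h and 5.31% at 24 h, and low single cells, the lowest at 1.09% at 48 h, occur in every group.

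The highest members were single pieces of very abundant mRNAs, and most kept their share of the gene. Gapdh-013, a model of 471 bases of the glycolytic enzyme gene with 72 own bases, averaged 1447, 1191, 1281, 1088 and 828 TPM from 0 h to 72 h. Over cells it ran between 296 and 1356 TPM at 72 h (median 817) and between 710 and 3027 TPM at 0 h (median 1387), so the cells of both times overlapped. Its share of the TPM of Gapdh was 42.7% at 72 h and 42.9% at 0 h. Hsp90aa1-008, of the inducible cytosolic chaperone HSP90 and with 13 own bases, averaged 227 TPM at 72 h, against 794 TPM at 0 h, while its share was 40.1% and 41.5%. Hsp90ab1-004, which holds 2 whole introns of the constitutive HSP90 gene, averaged 408 TPM at 72 h and 688 TPM at 0 h with shares of 23.6% and 23.02%. Eef1g-005, of a translation elongation factor, averaged 324 TPM at 72 h and 435 TPM at 0 h with shares of 49.1% and 51.3%. Calr-004, of the endoplasmic reticulum chaperone calreticulin, averaged 46.9, 115, 183, 219 and 192 TPM over the 5 times, and its share was 27.9% at 72 h against 31.2% at 0 h. With so few own bases, the level of such a model rests mostly on how shared reads were divided, and the library types differed: of the estimated counts of Gapdh, Gapdh-013 took 3.34% in rdRNA-seq, against 5.71% in paRNA-seq, and 26.8% in 10 pg RamDA-seq, against 7.83% in SMART-Seq v4.

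At the limit of 1 TPM, the members just inside were D5Ertd579e-008 (1.0002 TPM at 72 h), Taz-010 (1.0005 TPM at 72 h) and Paf1-002 (1.0007 TPM at 0 h). The transcripts just outside were A930001C03Rik-003 (0.9998 TPM at 72 h), Epha4-004 (0.9995 TPM at 0 h) and Echdc2-010 (0.9993 TPM at 0 h).

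Between 0 h and 72 h most members kept both their level and their share of the gene, and a minority moved far. The mean level at 72 h was at least 1 log2 unit higher (on log2(TPM + 1)) in 643 of 8327 members and at least 1 lower in 612, where 10.9% and 9.89% of all transcripts past the same limit moved that far up and down. Of 8099 members with a gene at 1 TPM or more at both times, the share of the gene was at least 10 percentage points higher at 72 h in 106 and at least 10 points lower in 142, where the figures over all transcripts were 3.22% and 2.87%. For 88.9% of the members the share differed by at most 5 points. Among the 142 members whose share was lower, the level of the member itself stayed within 1 log2 unit in 106, and the level of the gene was at least 1 unit higher in 59. Among the 106 whose share was higher, the member stayed within 1 unit in 80 and the gene was at least 1 unit lower in 35. The labels name no replicate cultures within a time, so these are differences between 5 sets of cells and carry no test.

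In the 5 genes with the largest fall in share, the member made up between 47.7% and 86.9% of the gene at 0 h. Wiz-006, a model of the zinc-finger partner of the histone methyltransferases G9a and GLP with 355 own bases, averaged 49.7, 31.1, 15.2, 3.91 and 1.03 TPM from 0 h to 72 h. Its share of Wiz was 86.9, 75.5, 63.6, 30.2 and 9.80%, falling at each step. Over cells it lay between 0 and 7.47 TPM at 72 h (median 0.702), against 10.4 to 93.4 TPM at 0 h (median 50.7), and the cells of the 2 times did not overlap.
On the plates, which the choice of members did not use, its share was 19.1, 14.7, 19.98 and 20.1% in PrE cells of B1, B2, E1 and E2, against 92.6, 91.7, 92.9 and 92.6% in ES cells. The log2 fold of the share, taken as the transcript over the rest of its gene, was -5.51 ± 0.15 (SE, 4 plates, limma adjusted p = 8.03e-07). Its level was 3.25, 1.99, 2.98 and 3.03 TPM in PrE cells, against 116, 95.2, 112 and 112 TPM in ES cells (log2 fold -4.86, limma adjusted p = 1.01e-08). In G1, S and G2/M cells its share was 88.8, 82.3 and 79.8%.

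Wiz as a whole averaged 10.5 TPM at 72 h, against 57.2 TPM at 0 h, and so was lower by less than its member. Aplp1-005 had the same pattern, whereas Cnppd1-008, Tcirg1-009 and Vamp3-002 changed by under 1 log2 unit while their genes were higher at 72 h. Cnppd1-008 averaged 9.98 TPM at 72 h and 7.42 TPM at 0 h, while its gene, which encodes a protein with a cyclin domain, averaged 29.9 TPM at 72 h against 10.4 TPM at 0 h. The share of Cnppd1-008 was 71.5, 63.6, 47.7, 36.4 and 33.4% over the 5 times. On the plates it was 27.8, 27.3, 28.1 and 26.8% in PrE cells, against 71.1, 81.9, 73.4 and 76.3% in ES cells, with no overlap (log2 fold -2.84 ± 0.18, limma adjusted p = 2.81e-05). Vamp3-002, of a v-SNARE of recycling endosomes, averaged 34.8 TPM at 72 h and 40.7 TPM at 0 h, while its gene averaged 75.2 TPM at 72 h and 53.7 TPM at 0 h. It had shares of 75.8, 66.1, 55.6, 48.3 and 46.3% over time. On the plates these were 62.3, 57.7, 55.4 and 59.2% in PrE cells, against 87.7, 84, 80.04 and 82.6% in ES cells (log2 fold -1.82 ± 0.20, limma adjusted p = 0.000445). Its fall over time depended on the gene models used: with the merged models, which add transcripts assembled from the reads, its share fell by 8.25 points. Tcirg1-009, of a subunit of the vacuolar proton pump, stayed at 12.4 TPM at 72 h and 12.4 TPM at 0 h while the gene averaged 33.99 TPM at 72 h, against 18.8 TPM at 0 h. Its share on the plates was 33.6, 31.7, 30.3 and 34.4% in PrE cells, against 63.5, 67.7, 57.9 and 61.8% in ES cells (log2 fold -1.76 ± 0.16, limma adjusted p = 0.000184). Aplp1-005, of an amyloid precursor-like membrane protein, averaged 3.64 TPM at 72 h and 21.3 TPM at 0 h, while its gene averaged 22.6 TPM at 72 h and 44.6 TPM at 0 h, and its share was 47.7, 45.7, 26.95, 14.1 and 16.1% over time. On the plates its share was 22.5, 24.4, 22.4 and 21.3% in PrE cells, against 45.3, 43.96, 46.1 and 55.1% in ES cells (log2 fold -1.57 ± 0.17, limma adjusted p = 0.000462). In all 5 of these members the plates of the 2 cell types did not overlap.

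**Figure D2:**
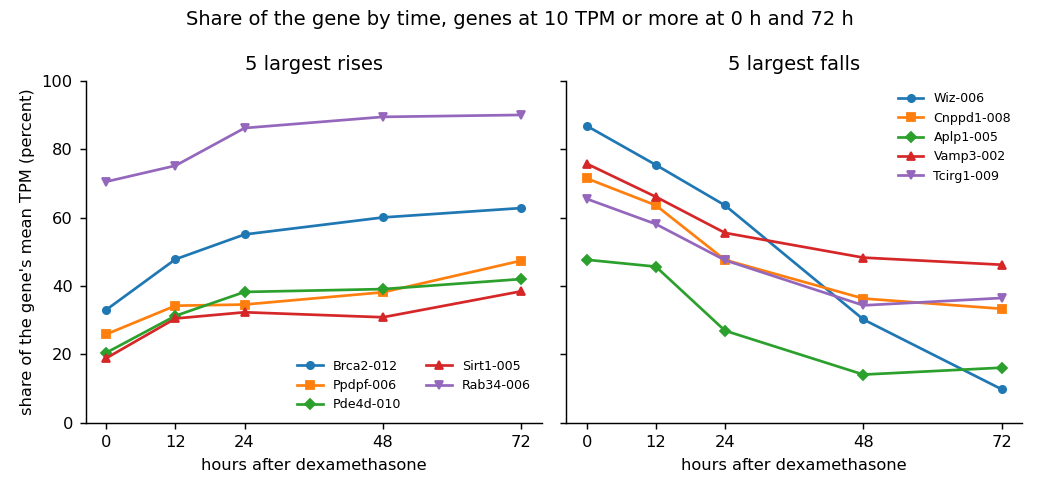
Share of the gene's mean TPM in percent (vertical axis) against hours after dexamethasone (horizontal axis), with 1 point a time, for the members with the 5 largest rises (left) and the 5 largest falls (right) among genes of at least 10 TPM at both times. Wiz-006 ends at 9.80% of its gene at 72 h after 86.9% at 0 h, and Rab34-006 ends at 90.1% after 70.6%.

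The members with the largest rise in share were of more mixed behaviour on the plates. Sirt1-005, of an NAD-dependent deacetylase, had shares of 18.9, 30.5, 32.3, 30.9 and 38.5% from 0 h to 72 h, while Sirt1 as a whole averaged 18.6 TPM at 72 h, against 60.5 TPM at 0 h. On the plates its share was 37.5, 36.3, 33.8 and 39.03% in PrE cells, against 20.2, 22.2, 17.8 and 22.9% in ES cells, with no overlap (log2 fold 1.15 ± 0.15, limma adjusted p = 0.00148). Rab34-006, of a small GTPase, had shares of 70.6, 75.2, 86.3, 89.5 and 90.1% over time. Its plate shares were 92.3, 94.1, 93.7 and 96.3% in PrE cells, against 72.1, 73.9, 70.9 and 69.1% in ES cells (log2 fold 2.42 ± 0.21, limma adjusted p = 0.000124), again with no overlap. Brca2-012, of a homologous recombination gene, stayed at 22.4 TPM at 72 h and 23.9 TPM at 0 h while Brca2 as a whole averaged 35.6 TPM at 72 h, against 72.2 TPM at 0 h, and its share was 33.1, 47.9, 55.1, 60.1 and 62.8% over the 5 times.

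On the plates Brca2-012 made up 60.01, 67.5, 57.5 and 91.5% in PrE cells, against 46.96, 42.2, 42.9 and 41.1% in ES cells. The groups did not overlap, but the high value of plate E2 widened the error and the limma adjusted p was 0.0808 (log2 fold 1.73 ± 0.58). Without the wells of few transcripts plate E2 gave 67.6%, with a log2 fold of 1.14 and an adjusted p of 0.00132. Pde4d-010, of a cAMP phosphodiesterase, had shares of 20.5, 31.3, 38.3, 39.1 and 42.1% over time and averaged 14.5 TPM at 72 h, against 2.73 TPM at 0 h. On the plates its share was 37.5, 5.57, 33.1 and 34.5% in PrE cells, against 15.7, 21.1, 15.5 and 16.97% in ES cells, so that 1 PrE plate lay under every ES plate (log2 fold 0.42, limma adjusted p = 0.735). Without the wells of few transcripts plate B2 gave 39.5%, the groups parted, and the log2 fold was 1.29 with an adjusted p of 0.000366. Ppdpf-006, of a gene named from the development of the zebrafish pancreas, had shares of 47.5% at 72 h and 25.9% at 0 h. On the plates it made up 72.7, 68.6, 71.5 and 78.8% in PrE cells, against 69.8, 74.1, 68.96 and 58.96% in ES cells, and the groups overlapped (log2 fold 0.32, limma adjusted p = 0.425).

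**Figure D3:**
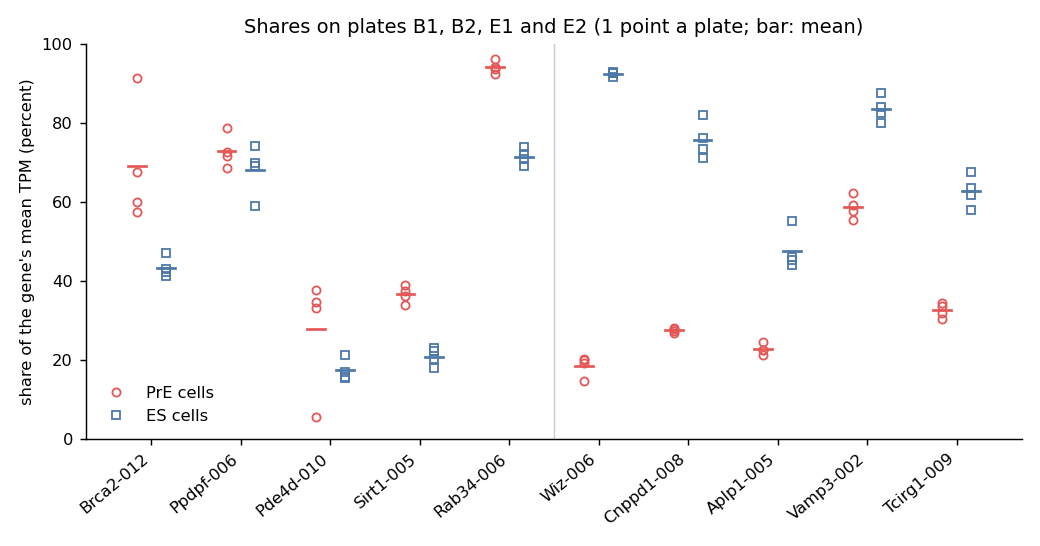
Share of the gene's mean TPM in percent (vertical axis) on plates B1, B2, E1 and E2 for the same 10 members, with circles for PrE cells, squares for ES cells, 1 point a plate and a bar at the mean. The right-hand members, led by Wiz-006 at 14.7 to 20.1% in PrE cells and 91.7 to 92.9% in ES cells, do not overlap, whereas Ppdpf-006 and Pde4d-010 do.

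Counted over all members that moved, the direction seen in time was mostly that of the plates. Of the 142 members lower in share by at least 10 points at 72 h, 116 could be tested on the plates, 110 had the same sign and 80 passed the limma threshold that way. Of the 106 higher in share, 80 could be tested, 69 had the same sign and 35 passed that way. Of the 6516 tested members whose share had not moved by 10 points, 848 (13.01%) passed in either direction. Both sets of cells are of the same line under the same treatment, but the plate libraries were made by a modified RamDA-seq protocol. The counts describe both sets with no test of the list.

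On the plates, members were called higher in level less often than all transcripts and lower about as often. Fewer members were called in share than in level. Of 6879 members tested, 1753 (25.5%) were higher and 1333 (19.4%) lower in PrE cells than in ES cells (limma, adjusted p under 0.05). Over all transcripts tested 30% were higher and 19.1% lower. The median log2 fold of the members was 0.05 beside 0.11 over all transcripts. For shares, 314 of 6809 members were higher and 705 lower in PrE cells, or 4.61% and 10.4%, where the figures over all transcripts were 6.22% and 8.51%. The median log2 fold of the share was -0.06 in members and -0.02 over all transcripts. Of the 705 members with a lower share, 271 did not pass the threshold in level, 224 were higher in level and 210 lower. Of the 314 with a higher share, 103 did not pass in level, 118 were higher and 93 lower. In PrE and ES cells captured on a C1 chip (39 and 16 cells, no replicate of the chip), the share differed in the same direction for 740 of the 1019 share calls (72.6%), and for 3207 of 5790 members not called (55.4%). Leaving out any 1 plate gave 547 to 676 share calls in place of 1019. Without the wells of few transcripts 1774 members were higher and 1575 lower in level, and 446 were higher and 943 lower in share.

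The extremes in level were members low in 1 cell type and far higher in the other. Members of Adamts9, a secreted metalloprotease, Plod2, a collagen lysyl hydroxylase, and Col4a1, a chain of basement membrane collagen, were among the 5 highest. Adamts9-003 had 38.1, 46.9, 56.6 and 51.5 TPM in PrE cells, against 0.981, 0.756, 0.871 and 0.7099 TPM in ES cells (log2 fold 4.74, limma adjusted p = 1.19e-08). Plod2-004 had 64.8, 78.7, 103 and 87.4 TPM in PrE cells, against 2.47, 2.00, 2.71 and 2.31 TPM in ES cells (log2 fold 4.63, limma adjusted p = 2.13e-08). Frmd4a-008, a model with 30 own bases, stood highest by fold, with 65.7, 43.01, 45.4 and 48.5 TPM in PrE cells, against 0.261, 0.532, 0.758 and 0.333 TPM in ES cells (log2 fold 5.13, limma adjusted p = 2.03e-08). Hkdc1-004, of a hexokinase-like gene, had 23.2, 25.2, 23.9 and 26.2 TPM in PrE cells and was listed at 0 in ES cells of all 4 plates. Among the lowest were 2 members of Slc7a3, a transporter of cationic amino acids. Slc7a3-003 had 0.199, 0, 0.109 and 0.0196 TPM in PrE cells, against 64.8, 62.1, 54.1 and 57.6 TPM in ES cells (log2 fold -5.81, limma adjusted p = 1.80e-09). Sept1-006, of a septin, had 0.162, 0.231, 0.128 and 0 TPM in PrE cells, against 43.9, 39.1, 51.4 and 55.8 TPM in ES cells (log2 fold -5.42, limma adjusted p = 6.99e-09). None of these named members overlapped between the cell types on the 4 plates, since the named extremes were taken only from members without overlap.

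The extremes in share were members that made up a very different part of their gene's estimated TPM in the 2 cell types. Tax1bp3-002, which keeps a whole intron of a gene for a PDZ-domain protein (both ends printed above), made up 9.25, 7.75, 7.09 and 7.14% of the gene in PrE cells, against 64.5, 71.03, 70.7 and 69.3% in ES cells (log2 fold -4.45 ± 0.15, limma adjusted p = 1.67e-06). Its own level was higher in PrE cells, at 8.82, 7.61, 7.54 and 7.07 TPM, against 4.46, 3.57, 4.00 and 3.61 TPM in ES cells (log2 fold 0.84, limma adjusted p = 0.0001995). Serpine2-003, a single exon of 3393 bases in a gene for a secreted protease inhibitor, made up 0.909, 1.25, 0.989 and 1.02% in PrE cells, against 20.3, 25.01, 30.1 and 27.9% in ES cells (log2 fold -4.98 ± 0.17, limma adjusted p = 1.67e-06), while its level of 1.07, 1.66, 1.34 and 1.18 TPM in PrE cells and 0.835, 0.585, 1.11 and 0.891 TPM in ES cells did not pass (limma adjusted p = 0.0677). Plxnd1-003, of a semaphorin receptor gene, made up 15.9, 21.4, 17.96 and 24.03% in PrE cells, against 89.3, 92.6, 91.95 and 90.5% in ES cells (log2 fold -3.65 ± 0.19, limma adjusted p = 8.31e-06). In each of these 3 the plates did not overlap in share, which the choice of named extremes required.

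In the other direction, Pecam1-009, a single exon of 2142 bases in the gene of an adhesion molecule, made up 76.2, 84.3, 72.1 and 66.2% in PrE cells, against 19.6, 18.1, 12.97 and 12.5% in ES cells (log2 fold 3.47 ± 0.26, limma adjusted p = 5.89e-05). The gene as a whole was low in PrE cells, and the member itself had 2.55, 2.96, 1.85 and 2.39 TPM in PrE cells, against 4.97, 4.24, 4.14 and 3.40 TPM in ES cells. Arhgef40-010, of a guanine nucleotide exchange factor, made up 12.6, 11.7, 11.6 and 10.5% in PrE cells, against 0.526, 0.360, 0.467 and 0.496% in ES cells (log2 fold 3.76 ± 0.14, limma adjusted p = 1.67e-06), and its level was higher too, at 24.2 to 26.9 TPM in PrE cells and 0.338 to 0.528 TPM in ES cells. Ccnd1, the gene of cyclin D1, had members of both directions. Ccnd1-003 made up 18.4, 18.1, 18.3 and 20.1% in PrE cells, against 6.28, 4.90, 4.78 and 6.05% in ES cells (log2 fold 2.87 ± 0.20, limma adjusted p = 3.66e-05). Ccnd1-002 made up 55.9, 41.5, 25.7 and 23.3% in PrE cells, against 69.4, 70.7, 71.3 and 71.8% in ES cells (log2 fold -1.52, limma adjusted p = 0.00111). Ccnl2-002, which keeps an intron of cyclin L2, a cyclin tied to splicing, made up 22.1, 21.1, 28.2 and 22.9% in PrE cells, against 8.99, 7.17, 12.0 and 6.46% in ES cells (log2 fold 1.57 ± 0.21, limma adjusted p = 0.00163). Its share over time was 19.3, 13.3, 18.4, 28.2 and 33.7% from 0 h to 72 h.

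The phase of the cell cycle moved few members. In S cells over G1 cells 16 members were at least 1 log2 unit higher and 2 lower, where 0.526% of all transcripts differed that far in either direction. In G2/M cells over S cells 21 were higher and 7 lower, where 0.627% of all transcripts differed. In G2/M cells over G1 cells 60 were higher and 3 lower, where 0.911% of all transcripts differed. Shares differed by at least 10 points in 69 members for S over G1 cells (41 higher, 28 lower, against 1.52% of all transcripts), in 50 for G2/M over S cells (14 higher, 36 lower, against 1.14%) and in 45 for G2/M over G1 cells (17 higher, 28 lower, against 1.22%). Of the 60 members higher in G2/M than in G1 cells, 14 belong to genes of a list of cell cycle and mitosis genes, which has 60 members in all, and 51 of the 60 kept their share within 5 points.

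Cdk1-007, of the kinase that drives entry into mitosis, averaged 12.5 TPM in G1, 34.4 TPM in S and 84.01 TPM in G2/M cells, with medians of 8.56, 30.9 and 78.9 TPM over cells. Its share of Cdk1 was 41.3, 41.1 and 43.7%. Ccnb1-006, of cyclin B1, averaged 16.3, 22.4 and 65.6 TPM in G1, S and G2/M cells, and its share was 25.5, 20.1 and 21.3%. Cdc20-004, of an activator of the anaphase-promoting complex, averaged 14.8, 12.7 and 40.7 TPM, and its share was 16.3, 18.3 and 16.9%. Prc1-014 and Ttyh3-003, named after their values were seen, were the members whose share also differed by at least 10 points. Prc1-014, of a microtubule bundler of the central spindle, averaged 6.61, 21.3 and 67.5 TPM with shares of 32.7, 37.7 and 43.4%. Ttyh3-003 averaged 0.668, 1.83 and 7.34 TPM with shares of 10.0, 24.5 and 56.6%, but its median over cells was 0 in each phase and a single G2/M cell had 231 TPM. The 3 lower members, also named after their values were seen, were Srsf1-007, of a splicing factor, at 20.7, 9.89 and 8.74 TPM in G1, S and G2/M cells, Uhrf1-006 at 13.4, 7.43 and 5.87 TPM and Hmces-005 at 12.9, 6.42 and 5.55 TPM. The labels name no replicate cultures within a phase, so no test was made.

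The comparison of rdRNA-seq with paRNA-seq asks which members are read better without selection of a poly(A) tail. Of the 8327 members, 3957 passed the filter on low counts, 356 of them (9%) in 305 genes were higher in rdRNA-seq and 73 (1.84%) in 66 genes lower, by a test for a log2 fold beyond 0.5 (edgeR, adjusted p under 0.05). Over all transcripts tested 4.89% were higher and 4.12% lower. The median log2 fold of the tested members was 0.32, beside -0.13 for protein-coding transcripts of the same genes, of which 2.02% were higher and 6.03% lower, -0.07 for their nonsense-mediated decay transcripts and -0.01 over all transcripts. Retained-intron transcripts under the limit of 1 TPM had a higher median than the members, at 0.67, with 12.8% of 587 tested higher and 1.02% lower. A total of 12 genes had a member in each direction. The share of the gene in estimated counts was higher in rdRNA-seq in 176 of 3912 members and lower in 45 (edgeR, adjusted p under 0.05), where 2.67% and 2.06% of all transcripts were called, and the median log2 fold of the share was 0.40 in members and 0.04 over all transcripts.

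These counts moved when a library was left out and when the deposited TPM of the merged models were used. Without any 1 of the 6 libraries between 189 and 224 members passed in place of 429. With the TPM of the merged models, 31 members were higher and 1082 lower, while the median of all transcripts was itself -1.12 and that of the members -0.98. After each library was centred at its median, 73 were higher and 109 lower, the medians were -0.09 over all transcripts and 0.05 in members, and 79 of these calls were shared with the main test. The excess of higher over lower members was thus seen in the estimated counts of the annotated transcripts and not in the TPM of the merged models. The models, the unit, the scaling and the test all differ between the 2 fits, and which of them moved the counts was not tested.

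The fold of a member went with the number of its own bases. Members of at most 126 own bases had a median log2 fold of 0.00 (28 higher and 42 lower of 1169 tested), those of up to 277 had 0.15 (25 and 13 of 749), those of up to 628 had 0.28 (36 and 8 of 681) and those of more than 628 had 0.81 (267 and 10 of 1358). A whole intron inside went with a median of 0.42 (138 higher and 27 lower of 1421), against 0.25 without one (218 and 46 of 2536). Of 64 tested members with a snoRNA gene inside, 25 were higher and 5 lower, with a median of 1.11, but in share of the gene 8 were higher and 7 lower, with a median of 0.74. The part of reads from the snoRNA itself in these values was not tested. Members that end within 50 bases of the 3′ end of a coding transcript had a median of 0.31 (700 tested), the same as members that end elsewhere (0.31, 3205 tested).

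**Figure D4:**
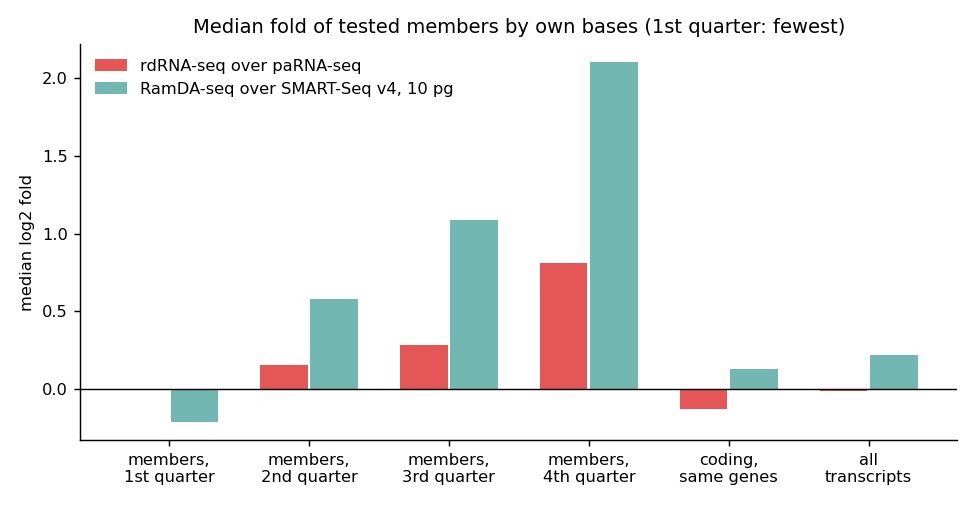
Median log2 fold (vertical axis) of tested members divided at 126, 277 and 628 own bases into 4 parts, of coding transcripts of the same genes and of all transcripts, for rdRNA-seq over paRNA-seq (left bars) and 10 pg RamDA-seq over SMART-Seq v4 (right bars). The medians climb to 0.81 and 2.10 in the members of most own bases, and the first left bar is at 0.00.

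Of the 10 members with the largest folds, Rps18-008 stood first. Rps18-008, of a small ribosomal subunit protein, had 4432, 4763 and 5608 estimated counts in rdRNA-seq, against 45, 67 and 36 in paRNA-seq (log2 fold 7.21 ± 0.23, edgeR adjusted p = 3.79e-05). It took 47.4% of the counts of its gene in rdRNA-seq, against 0.453% in paRNA-seq, and in 10 pg RamDA-seq it had 16, 0 and 22 counts. Ppp1r10-002, of a nuclear targeting subunit of protein phosphatase 1 and with the miRNA gene Mir1894 inside, had 114, 112 and 98 counts in rdRNA-seq, against 6, 4 and 4 in paRNA-seq (log2 fold 5.06 ± 0.26, edgeR adjusted p = 0.000274). Its share of the gene's counts was 23.95% in rdRNA-seq, against 0.637% in paRNA-seq. Serbp1-010, a single exon of an mRNA-binding protein gene with 1945 own bases, had 122, 131 and 116 counts, against 26, 20 and 14 (log2 fold 3.18 ± 0.27, edgeR adjusted p = 0.00210). Hnrnpa2b1-004, of an hnRNP gene, has 4 annotated introns inside, some of which overlap. It had 351, 339 and 350 counts, against 102, 97 and 82 (log2 fold 2.46 ± 0.10, edgeR adjusted p = 0.000151). Its part of the gene's counts was 5.39% in rdRNA-seq, against 0.655% in paRNA-seq. In none of these did the 2 library types overlap, which was a condition for naming them.

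Hosts of small RNAs were among the other large folds. Snhg1-003, of a noncoding snoRNA host, has 10 annotated introns and several snoRNA genes inside. It had 256, 207 and 279 counts in rdRNA-seq, against 55, 85 and 75 in paRNA-seq (log2 fold 2.35 ± 0.20, edgeR adjusted p = 0.00213). Zfos1-002, with Snord12 inside, had 105, 93 and 77 counts, against 17, 25 and 24 (log2 fold 2.63, edgeR adjusted p = 0.00364). Eif4a2-022, of a translation initiation helicase and with a snoRNA gene inside, had 310, 353 and 252 counts, against 119, 74 and 66 (log2 fold 2.40, edgeR adjusted p = 0.00748). Atp5o-006 and Eif2s2-003, of an ATP synthase subunit and of the beta subunit of initiation factor eIF2, were at 235, 258 and 333 and at 118, 124 and 125 counts in rdRNA-seq, against 16, 0 and 0 and 9, 0 and 10 in paRNA-seq. Their edgeR adjusted p-values of 0.0258 and 0.0320 were lost in 5 of the 6 fits with 1 library left out, reaching 0.0887 and 0.0968. Gm21992-003 had 142, 135 and 170 counts in rdRNA-seq, against 22, 25 and 25 in paRNA-seq (log2 fold 3.19, edgeR adjusted p = 0.000229).

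Of the 73 members lower in rdRNA-seq, 42 had at most 126 own bases. Trim28-008, of the corepressor KAP1, keeps an intron of 87 bases and had 18, 26 and 23 counts in rdRNA-seq, against 477, 540 and 537 in paRNA-seq (log2 fold -3.96 ± 0.16, edgeR adjusted p = 0.000117). It took 0.416% of the gene's counts in rdRNA-seq, against 3.21% in paRNA-seq, while in single cells it averaged 83.5 TPM at 72 h and 267 TPM at 0 h. Prpf8-003, of the core spliceosome protein and with 17 own bases, had 0 counts in all 3 rdRNA-seq libraries, against 151, 104 and 144 in paRNA-seq, at least 29.8-fold lower with 3 counts a library as the floor (edgeR adjusted p = 0.00333). Ap2m1-009, of a clathrin adaptor subunit, had 0 counts in all 3, against 96, 72 and 142, at least 23.2-fold lower (edgeR adjusted p = 0.00809). Rps16-002 had 54, 57 and 86 counts, against 595, 788 and 879 (log2 fold -2.95, edgeR adjusted p = 0.00149), and Rplp2-003, with Snora52 inside, had 28, 33 and 30 counts, against 243, 317 and 427 (log2 fold -2.86, edgeR adjusted p = 0.00227). Trim28-006 had 70, 105 and 155 counts, against 1387, 1347 and 1300 (log2 fold -3.04, edgeR adjusted p = 0.00225). Btf3-004, Cnot3-005, Ubap2l-007 and Cic-004 were lower as well, with edgeR adjusted p-values of 0.0135, 0.0447, 0.0300 and 0.0470 that some fits with 1 library left out lost, the highest at 0.0551, 0.134, 0.109 and 0.148.

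**Figure D5:**
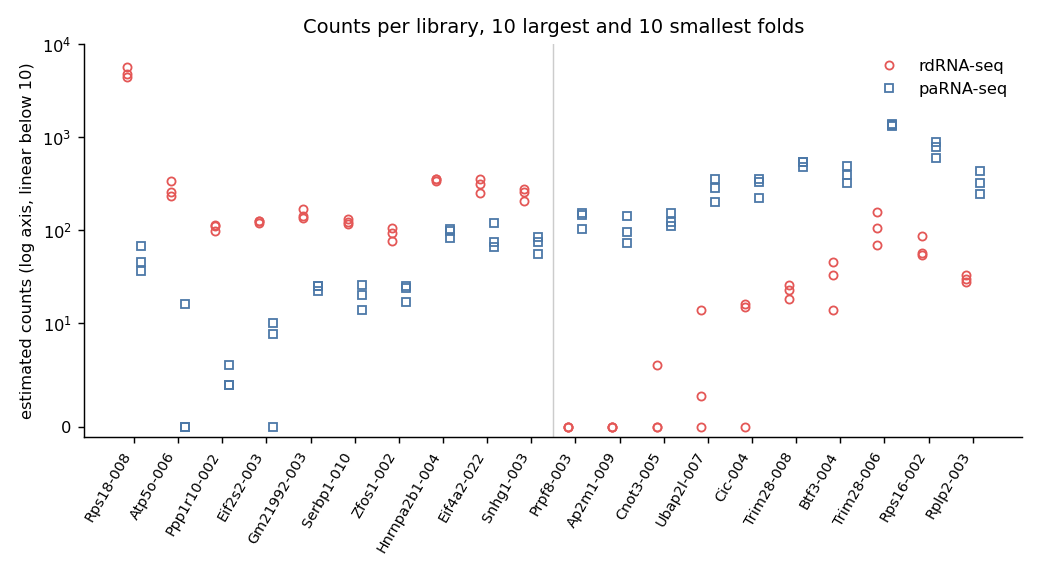
Estimated counts (vertical axis, logarithmic and linear below 10) of the 10 members with the largest and the 10 with the smallest log2 folds, with circles for the 3 rdRNA-seq libraries and squares for the 3 paRNA-seq libraries. Rps18-008 lies at 4432 to 5608 counts in rdRNA-seq, against 36 to 67 in paRNA-seq, and Prpf8-003 and Ap2m1-009 at 0 in rdRNA-seq.

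Splicing genes, the group best known for kept introns, split in both directions in level. Of 32 tested members of SR protein genes, which code for splicing activators rich in arginine and serine, 3 were higher and 3 lower in rdRNA-seq with a median log2 fold of -0.38. In share of the gene 3 were higher and 0 lower, with a median log2 fold of 0.17. Over all transcripts 2.67% were higher and 2.06% lower in share. Srsf3-004 had 63, 28 and 45 counts in rdRNA-seq, against 0 in all 3 paRNA-seq libraries, at least 22.4-fold higher (edgeR adjusted p = 0.0108). Srsf5-007 had 66, 59 and 70 counts, against 16, 24 and 37 (log2 fold 1.90, edgeR adjusted p = 0.0346). The 6 annotated introns inside it include alternatives that share a start. By contrast Srsf5-005, with 3 annotated introns inside, had 338, 332 and 333 counts, against 819, 754 and 778 (log2 fold -0.66, edgeR adjusted p = 0.0411). Tra2b-002 had 65, 75 and 65 counts, against 37, 34 and 42 (log2 fold 1.43, edgeR adjusted p = 0.0193), and Srsf6-004 had 181, 220 and 194 counts, against 552, 543 and 536 (log2 fold -0.88, edgeR adjusted p = 0.0220). On the plates the share of Srsf6-004 was 21.6, 15.4, 18.4 and 16.4% in PrE cells, against 12.4, 10.9, 13.3 and 8.55% in ES cells (log2 fold 0.77, limma adjusted p = 0.0325), and the groups did not overlap.

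Of 44 tested members of hnRNP genes 4 were higher and 2 lower in rdRNA-seq, and of 69 of spliceosome genes 3 were higher and 3 lower, where 4.89% of all transcripts were higher and 4.12% lower. In share of the gene 3 hnRNP members were higher and 1 lower, with a median log2 fold of 0.73. For spliceosome members 2 shares were higher and 0 lower, with a median of 0.34. On the plates 19 of 53 hnRNP members were lower in level in PrE cells and 3 higher, and 8 were lower in share and 1 higher. Spliceosome members were lower in 23 of 99 and higher in 7 for level, and lower in 2 and higher in 2 for share. Over all transcripts on the plates 19.1% were lower and 30% higher in level, and 8.51% lower and 6.22% higher in share, so the lower spliceosome members were near that background. Of 21 members of SR protein kinase genes on the plates 2 were higher and 3 lower in level. Of 39 members of genes known from other work for an intron held in the nucleus, 2 were higher in rdRNA-seq and 1 lower. Mat2a-004, of the enzyme that makes S-adenosylmethionine, had 20, 28 and 23 counts in rdRNA-seq, against 2, 5 and 1 in paRNA-seq (log2 fold 3.65, edgeR adjusted p = 0.0213).

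Members of ribosomal protein and snoRNA host genes were more often higher in level in rdRNA-seq than the 4.89% of all transcripts. Their shares were called about as often in each direction. Both ways this was more often than over all transcripts, of which 2.67% were higher and 2.06% lower in share. Of 104 tested members of ribosomal protein genes 28 were higher and 3 lower in rdRNA-seq, with a median log2 fold of 0.99, and 7 were higher and 5 lower in share. Rpl24-004 had 1351, 1278 and 1507 counts in rdRNA-seq, against 556, 619 and 576 in paRNA-seq (log2 fold 1.81 ± 0.06, edgeR adjusted p = 7.26e-05). Of 103 members of snoRNA hosts 24 were higher and 5 lower, with a median of 0.67, and 7 were higher and 8 lower in share. Gas5 had members of both directions. Gas5-003, with 10 annotated introns inside, had 302, 329 and 332 counts, against 95, 139 and 96 (log2 fold 2.12, edgeR adjusted p = 0.00214). Gas5-006, with 6 annotated introns inside, had 0 in all 3, against 69, 61 and 54, at least 13.8-fold lower. Of 45 members of translation factors 11 were higher, with a median of 0.59, and 3 were higher and 1 lower in share. On the plates 69 of 109 ribosomal members and 75 of 116 snoRNA host members were lower in level in PrE cells. So were 26 of 49 translation factor members, where 19.1% of all transcripts were lower. In share 11, 6 and 4 members of these lists, in this order, were lower and 2, 7 and 1 higher. Over all transcripts 8.51% were lower and 6.22% higher in share.

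Of the called members of chromatin, pluripotency and cell cycle genes most were lower in level in PrE cells, and of those of endoderm genes most were higher, beside 19.1% lower and 30% higher over all transcripts (8.51% and 6.22% for share). Of 72 members of chromatin genes on the plates 36 were lower in PrE cells and 3 higher, with 6 lower and 2 higher in share. Hmgn2-002, of a nucleosome-binding protein, has 7 annotated introns inside. It made up 0.544, 0.558, 0.536 and 0.506% of its gene in PrE cells, against 1.78, 1.94, 2.16 and 2.71% in ES cells (log2 fold -1.79, limma adjusted p = 0.000103). Hmgn2-002 had 55, 62 and 44 counts in rdRNA-seq, against 7, 10 and 8 in paRNA-seq (log2 fold 3.24, edgeR adjusted p = 0.00287). Kdm5b-005, of a histone H3 lysine 4 demethylase, had 24, 27 and 31 counts in rdRNA-seq, against 3, 1 and 2 in paRNA-seq (log2 fold 4.24, edgeR adjusted p = 0.00514). Of 17 pluripotency members 10 were lower and 2 higher in level in PrE cells with a median log2 fold of -1.16, and of 20 primitive endoderm members 12 were higher and 6 lower with a median of 2.51, while 5 were lower in share and 2 higher. Of 56 cell cycle members 18 were lower in level and 4 higher, with 4 in each direction for share. In rdRNA-seq over paRNA-seq, where 4.89% of all transcripts were higher and 4.12% lower, 7 of 52 chromatin members were higher, 1 of 16 pluripotency members higher and 4 lower, 2 of 10 endoderm members in each direction, and 1 of 40 cell cycle members higher and 2 lower.

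The same members were compared between 10 pg libraries of RamDA-seq, primed along the RNA, and of SMART-Seq v4, primed at the tail. These methods also differ in how the cDNA is amplified, so an effect of priming alone was not tested. Of 3154 members that passed the filter 313 were higher in RamDA-seq and 61 lower (edgeR, adjusted p under 0.05), where 7.15% of all transcripts were higher and 3.75% lower. The median log2 fold was 0.81 in members, 0.13 in coding transcripts of the same genes and 0.22 over all transcripts. It was -0.21, 0.58, 1.08 and 2.10 in members of at most 126, up to 277, up to 628 and over 628 own bases. Of the 313 higher members 231 had 0 counts in all 4 SMART-Seq v4 libraries, and of the 61 lower ones 13 had 0 in all 3 RamDA-seq libraries. The number of calls rested on having 3 RamDA-seq libraries: without any 1 of them 18 to 22 members passed, of which 6 or 7 were higher, whereas without any 1 SMART-Seq v4 library 388 to 400 passed.

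Gm14391-005, a model of 5536 bases with 3 annotated introns inside, had 342, 440 and 406 counts in RamDA-seq and 0 in all 4 SMART-Seq v4 libraries, at least 356-fold higher (edgeR adjusted p = 0.00481). Wdr75-002, of a ribosome biogenesis factor, had 180, 154 and 100 counts, against 0 in all 4, at least 130-fold higher (edgeR adjusted p = 0.02003). Ppp1r9a-007, of neurabin, had 185, 213 and 227 counts, against 0 in all 4, but has no own base, so its reads are all in exons of other transcripts. Ahcyl1-003 had 93, 156 and 155 counts, against 0 in all 4. In the other direction Ywhae-003, of a 14-3-3 protein and with 93 own bases, had 0 counts in all 3 RamDA-seq libraries, against SMART-Seq v4 counts of 418, 298, 494 and 172, at least 42.7-fold lower (edgeR adjusted p = 0.0169). Mtx1-014, Larp7-002, Rhoa-004 and Cars-009 were likewise at 0 in RamDA-seq and at 186 to 454, 72 to 306, 114 to 255 and 76 to 180 counts in SMART-Seq v4. Each of these lost its call when a RamDA-seq library was left out, with adjusted p-values of up to 0.113. Members of SR protein genes were higher in RamDA-seq in 9 of 22 and lower in 1, with a median log2 fold of 3.32, where 7.15% of all transcripts were higher. Other lists had high medians too. Of 28 hnRNP members 8 were higher and 0 lower (median 2.95), and of 35 chromatin members 8 and 1 (2.17). Of 62 spliceosome members 11 were higher and 1 lower (1.83), whereas of 34 cell cycle members 6 were higher and 2 lower (0.31). Srsf6-004 had 108, 177 and 66 counts in RamDA-seq and 0 in all 4 SMART-Seq v4 libraries (edgeR adjusted p = 0.0264). In rdRNA-seq over paRNA-seq, by contrast, Srsf6-004 was lower, and the 32 SR members tested had a median of -0.38.

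The 2 method comparisons picked partly the same members. Of 2541 members tested in both, 232 were higher in rdRNA-seq over paRNA-seq and 258 in RamDA-seq over SMART-Seq v4, and 44 were higher in both, which is 18.97% of the first set and 17.1% of the second. Among the 2251 members that were not called in rdRNA-seq over paRNA-seq, 9.15% were higher in RamDA-seq. The members that led the time course were not among those set apart by the poly(A) selection: Wiz-006 had 988, 822 and 1038 counts in rdRNA-seq, against 1226, 1252 and 1339 in paRNA-seq (log2 fold 0.15, edgeR adjusted p = 1), and Vamp3-002 had 137, 89 and 91, against 158, 180 and 155 (log2 fold -0.07, edgeR adjusted p = 1). Ppdpf-006 was the exception among the 10 with the largest changes in share that could be tested, with 80, 66 and 64 counts in rdRNA-seq, against 29, 21 and 22 in paRNA-seq (log2 fold 2.11, edgeR adjusted p = 0.00711).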

How the data were processed

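RamDA-seq, rdRNA-seq, paRNA-seq and SMART-Seq v4 libraries of 5G6GR mouse cells were used as deposited. The authors trimmed the reads with fastq-mcf and quantified transcripts with Sailfish on GENCODE vM9 and ERCC sequences. They deposited TPM for single cells, plates and C1 cells, and estimated counts for bulk and 10 pg libraries after drawing 10000000 reads a library (bulk paired-end, others single-read). Merged models on mm10 came from HISAT2 2.0.1 and Cufflinks 2.2.1 per the labels. Of 1957125 estimated counts, 673176 were not whole and were rounded. ERCC rows (at most 1.6% of a library) were left out, and 16 columns of other methods were not used. Bulk PrE libraries were not analysed here. No 2 of the 1190 cell columns were identical (0 pairs).

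Estimated counts were tested in edgeR 4.0.16 (R 4.3.3; TMM, filterByExpr, quasi-likelihood). The rdRNA-seq over paRNA-seq comparison used glmTreat with a log2 fold of 0.5, as the study did, shares used diffSpliceDGE, and RamDA-seq over SMART-Seq v4 used glmQLFTest. Plate values are means over cells, and the plate was the unit of the tests, with no separate cultures named. Levels were tested with limma 3.58.1 on log2(mean TPM + 1) for transcripts of at least 1 TPM on average. Shares were tested on log2((transcript + 0.5)/(rest of the gene + 0.5)), where 33 of 1019 calls went against the difference of the mean shares. Folds on these scales understate changes of low transcripts. All p-values were adjusted by Benjamini-Hochberg over all transcripts, with a threshold of 0.05. Times and phases have no labelled replicate cultures and were not tested. There a level was called moved at 1 log2 unit and a share at 10 points.

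Plates pair PrE and ES cells by their labels. The deviations of the 2 cell types from their group means correlated at 0.13, 0.04, 0.15 and 0.11 on B1, B2, E1 and E2. Between B1 and E1 the same correlations were -0.095 and -0.123. Replicate numbers of the other libraries only name them.

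Named members are those in fixed gene lists, the highest levels, the largest changes of share over time (genes of at least 10 TPM), and the extremes of each test without overlap between groups (mean of at least 50 counts for counts). Members and lists were chosen with earlier results of these data known. Alternatives were DESeq2 1.42.0, other normalizations, filters, pseudocounts and limits, left-out libraries, plates and cells, blocks, and the merged models. The fits were tested on simulated data. Splice sites were read from GENCODE vM21 transcripts of the same identifier, version and length. Low counts limit precision, and floors cover counting error only. A few members that this rule would name are not reported here.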

Additional observations from a re-analysis of the deposited data

Results flagged for a closer look

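In 68 groups of 4 plates, the shares of named members were searched for a plate far from the other 3, by its gap to the nearest other value over the whole range of the group. Chance puts about 1 in 20 such groups past the limit, and 2 passed. The share of Pde4d-010 in PrE cells of plate B2 was 5.57%, against 37.5, 33.1 and 34.5% on the other plates (ratio 0.860), and it was 39.5% without the wells of few transcripts. The share of Ccnd1-003 in PrE cells of plate E2 was 20.1%, against 18.4, 18.1 and 18.3% on the other plates (ratio 0.850).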

How the results depend on the processing

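In rdRNA-seq over paRNA-seq 429 members passed, 356 higher and 73 lower. The number that passed, and how many of these were among the 429, was 429 and 429 with the size factors of DESeq2, 546 and 424 with the DESeq2 Wald test, 765 and 429 in a test against 0, 210 and 209 with no filter on low counts, 1113 and 81 with the TPM of the merged models, and 182 and 79 with those centred at their medians, an alternative added after seeing the data. The balance turned with the merged models, to 31 higher and 1082 lower, and to 73 and 109 after centring. With 1 library left out 189 to 224 passed. With the replicate number as a block 60 passed for level, 142 of 221 for share and 4 of 374 for RamDA-seq over SMART-Seq v4. Same-numbered libraries did not deviate together, so these numbers are no pairing, and the cause of the loss was not tested. With 1 library left out 146 to 170 passed for share. For RamDA-seq over SMART-Seq v4, 376 passed with the size factors of DESeq2, 806 with the DESeq2 Wald test, 54 with no filter and 18 to 400 with 1 library left out. The 313 higher and 61 lower members became 6 or 7 higher of 18 to 22 without 1 RamDA-seq library. On plates, 2487 to 2616 members passed for level without 1 plate (3086 with all), and plate as a block gave 3286 for level and 912 for share and changed no call of a named member. Of 1019 share calls 547 to 676 passed without 1 plate and 209 at a mean of at least 5 TPM, where fewer members are tested. Shares that moved by 10 points over time (248) were 143 at a limit of 2 TPM for members, 168 with the merged models and 317 at 0.5 TPM. Levels that moved by 1 log2 unit (1255) were 2325 with a pseudocount of 0.1. Without wells of few transcripts, an alternative for the followed shares added after seeing the data, 50 in place of 35 higher and 90 in place of 80 lower shares passed on the plates. For named members 312 of 378 values with 1 library or plate left out stayed on their side of the threshold.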
